A study of Mus musculus with 14 samples.

Results

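The genes of the HIF hydroxylases and of the HIF subunits were followed in MEFs, fibroblasts cultured from mouse embryos, during reprogramming with and without vitamin C. The set held 8 of the 19938 genes measured: the prolyl hydroxylases Egln1, Egln2 and Egln3, the asparaginyl hydroxylase Hif1an, the subunits Hif1a, Epas1 and Arnt, and Vhl. Each was chosen by name, through the probes that the platform annotation assigns to that symbol alone, and each had 1 such probe. Cells had been infected with retroviruses for Sox2, Klf4 and Oct4 (SKO) or with a green fluorescent protein virus (GFP) as the control, and from day 2 all of them were in embryonic stem cell medium containing LIF. The groups were 6 arrays of SKO cells with 50 µg/ml vitamin C (days 3, 4, 5, 6, 8 and 10), 6 of SKO cells without it on the same days, 1 of GFP cells with vitamin C (day 3) and 1 of GFP cells without it (day 3). No condition and day had a second array, so the p-values below do not measure variation between independent cultures. They rest on how the difference between the arms with and without vitamin C varied from day to day. In the day and SKO against GFP tests both arms of a day stood in for replicates. A shift that both arms of a day share therefore counts there as a difference between days or viruses. Transduced cultures are mixed populations, and in bulk RNA fewer cells of a kind cannot be told apart from less RNA per cell.

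HIF, the hypoxia-inducible factor, is a pair of proteins: an oxygen-regulated alpha subunit, HIF-1α (encoded by Hif1a) or HIF-2α (Epas1), and the stable partner ARNT. In the presence of oxygen the prolyl hydroxylases PHD2 (Egln1), PHD1 (Egln2) and PHD3 (Egln3) hydroxylate the alpha subunit, VHL then binds it as the recognition subunit of a ubiquitin ligase, and the proteasome degrades it, while FIH (Hif1an) hydroxylates an asparagine that HIF needs free to bind its coactivators. All 4 hydroxylases use oxygen, 2-oxoglutarate and iron, and vitamin C helps to keep that iron reduced. EGLN3 and EGLN1 are themselves induced by HIF in many cell types. Arrays measure RNA, so neither hydroxylation nor the amount of HIF protein is seen here.

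Promoter sequence is shown for Egln3 and Egln1, as hydroxylase genes known to respond to HIF, and for Hif1a, whose RNA differed between SKO and GFP cells. The windows are the 250 bases before the start of the RefSeq transcript in mouse build GRCm38.p6, read 5′ to 3′ along the gene: chr12:54203875-54204124 on the minus strand for Egln3, chr8:124949255-124949504 on the minus strand for Egln1 and chr12:73907617-73907866 on the plus strand for Hif1a. The Hif1a window precedes a transcript start at 73907867, which lies inside the gene's span of chr12:73901324-73947554 and not at its first base. Capitals mark the core letters of a HIF response element, ACGTG or GCGTG, on either strand.
Egln3: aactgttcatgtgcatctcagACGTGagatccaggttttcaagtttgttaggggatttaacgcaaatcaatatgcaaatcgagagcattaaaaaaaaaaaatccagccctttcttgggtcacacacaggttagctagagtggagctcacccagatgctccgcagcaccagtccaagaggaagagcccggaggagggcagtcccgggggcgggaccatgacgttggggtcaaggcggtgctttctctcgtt
Egln1: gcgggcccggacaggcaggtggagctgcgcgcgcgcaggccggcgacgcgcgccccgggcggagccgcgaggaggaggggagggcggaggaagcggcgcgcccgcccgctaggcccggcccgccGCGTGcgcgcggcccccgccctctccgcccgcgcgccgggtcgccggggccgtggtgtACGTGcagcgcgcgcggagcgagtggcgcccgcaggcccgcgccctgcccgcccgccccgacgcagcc
Hif1a: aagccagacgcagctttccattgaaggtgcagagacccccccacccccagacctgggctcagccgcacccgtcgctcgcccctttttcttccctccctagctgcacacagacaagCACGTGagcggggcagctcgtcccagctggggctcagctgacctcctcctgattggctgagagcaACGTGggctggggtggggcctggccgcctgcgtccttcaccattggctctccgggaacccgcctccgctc
The Egln3 window held 1 ACGTG, starting at position -229 from the transcript start. The Egln1 window held 1 GCGTG at -126 and 1 ACGTG at -68, within a stretch of 86% G and C. The Hif1a window held 3 matches to ACGTG, of which those at -135 and -134 overlap as both strands of the palindrome CACGTG, and the third lies at -70. Of 32851 mouse windows of this length, 16.6% held ACGTG, 28.2% GCGTG and 38.6% either, so a match is a description of the letters and not of a bound site. A window was at hand for 7 of the 8 genes (Epas1 had none), and those of Hif1an (chr19:44562604-44562853) and Vhl (chr6:113623744-113623993) had no match to either core.

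Arrays were alike in median, from 5.19 to 5.28 on the log2 scale, and had interquartile ranges from 3.04 to 3.33. The widest were the treated SKO arrays of day 6 (3.30) and day 8 (3.33), against 3.18 or less on every other array. The virus was seen in the RNA: Pou5f1, the gene of Oct4, was 144-fold higher in SKO than in GFP cells on day 3, Klf4 2.02-fold and Sox2 1.52-fold. Fibroblast markers were strong on all arrays, with a mean log2 signal of the 10 genes from 9.68 to 10.1 in SKO cells with vitamin C, 9.63 to 10.1 in SKO cells without it, and 10.4 to 10.8 in GFP cells. Days 3, 5 and 10 of the SKO cells stood apart from days 4, 6 and 8 in a way that does not follow time: 5.7% of all genes were higher on all 6 arrays of days 4, 6 and 8 than on all 6 of the other days, and 3.66% were lower on all 6. What sets these days apart was not tested. The division was chosen after the data were seen, and values within each set of days are given beside the results it touches.

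The 8 genes differed widely in how much their signal moved over the 14 arrays. Epas1 had the widest range, from 5.57 to 8.84 (log2 RMA signal), and Egln3 the next, from 5.77 to 8.35. Hif1a ranged from 8.59 to 9.74, Arnt from 8.07 to 9.02, Egln1 from 7.21 to 7.91, Egln2 from 7.06 to 7.57 and Hif1an from 6.77 to 7.26. Vhl was the flattest, between 6.38 and 6.62. Most of what follows therefore concerns Epas1, Egln3, Hif1a and, through the division of the days, Egln1 and Arnt. The plot of all signals by day shows these differences.

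**Figure D1:**
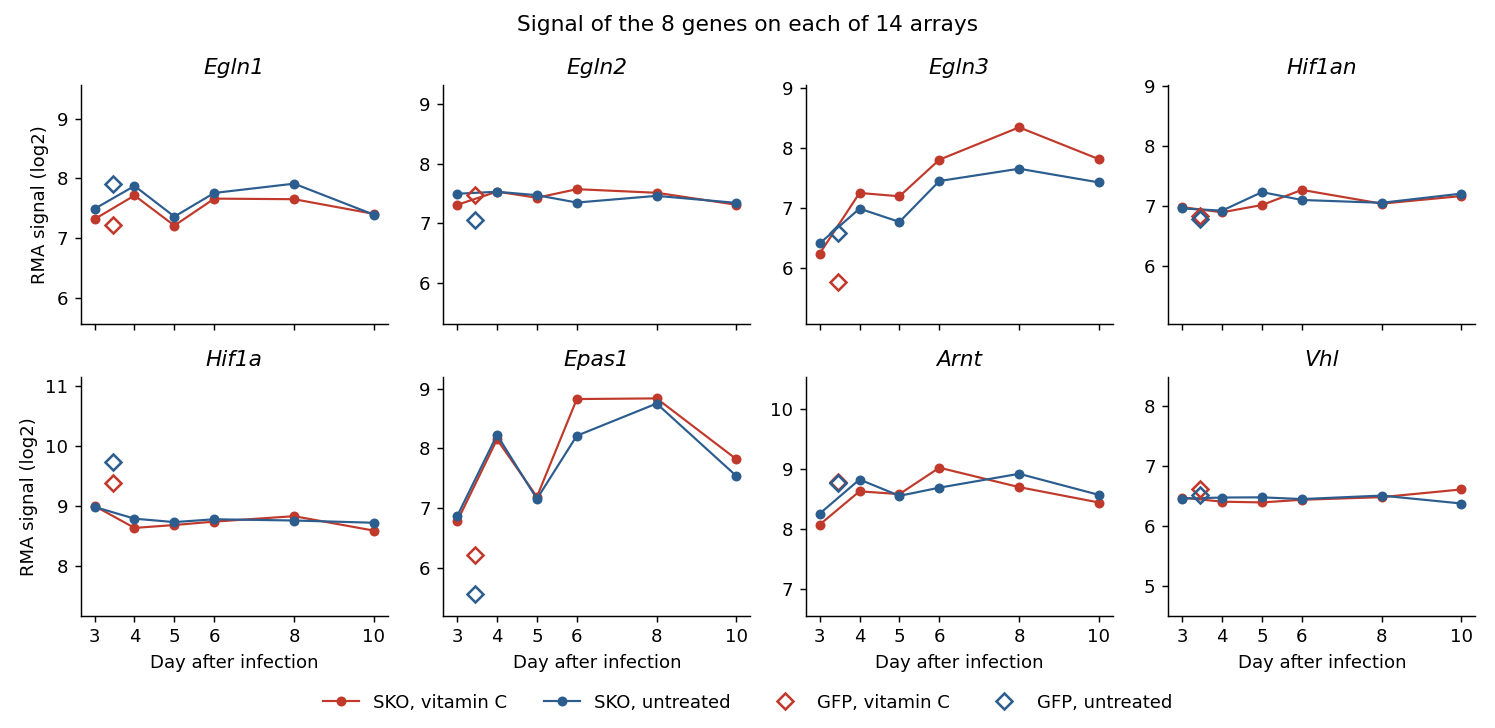
RMA signal (log2, vertical axis, the same span in each panel) of the 8 genes against the day after infection, 1 point per array. Lines join the 6 SKO arrays with vitamin C (red) and without it (blue), and diamonds are the GFP arrays of day 3, drawn just right of it. Epas1 and Egln3 range most widely, from 5.57 to 8.84 and from 5.77 to 8.35, while Vhl stays between 6.38 and 6.62.

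SKO cells were set against GFP cells on day 3 to see what had changed early under the 3 factors. The balance of the alpha subunits differed: Epas1 was 1.90-fold higher in SKO cells and Hif1a 1.48-fold lower, and their shared partner Arnt was 1.53-fold lower on that day. None of the 4 hydroxylase genes passed the test, and neither did Vhl. Thus 3 of 8 genes passed, 1 higher and 2 lower (limma, adjusted p under 0.05 over all genes), against 17.6% of all genes tested (9.22% higher and 8.43% lower). Fibroblast markers moved in the same comparison: 7 of 10 were lower in SKO cells and 0 higher, with a median of -1.15 (Lum -1.91, Fbln1 -1.45 and Pdgfra -1.41 the lowest). Their part in the differences of the HIF genes was not tested. Days 3 and 4 of the SKO cells belong to different sets of the divided days, and GFP cells have day 3 alone. The part of that division in the differences from GFP cells on either day, here and for the partners and targets below, was not tested.

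Among the subunits, Epas1 (chr17:86753864-86833410), the HIF-2α gene, had a log2 signal of 6.78 with vitamin C and 6.87 without in SKO cells of day 3, against 6.22 and 5.57 in GFP cells. Both SKO arrays were above both GFP arrays, by 0.93 ± 0.20 (SE; log2, 2 arrays against 2, limma adjusted p = 0.00584). All 12 SKO arrays of the course were above both GFP arrays, as was the case for 6.92% of all genes. Against day 4 of the SKO cells the difference was 2.29 (limma adjusted p = 9.35e-06). That value crosses the division of the days, as Epas1 averaged 8.50 on SKO days 4, 6 and 8 and 7.23 on days 3, 5 and 10. Without the untreated GFP array the day 3 difference was 0.67 (limma adjusted p = 0.0716) and without the untreated SKO array 0.75 (limma adjusted p = 0.0761). Because Epas1 is strong in endothelial cells, the endothelial markers were read beside it. Of 10 such markers 1 was higher in SKO cells, Tek (2.66 on the log2 scale), and 1 lower, Flt1 (-0.67). The mean signal of the list was 4.79 with vitamin C and 4.63 without in SKO cells of day 3, against 4.69 and 4.52 in GFP cells. Over all 14 arrays Tek ranged from 4.49 to 9.34 and Flt1 from 6.20 to 7.41, at percentiles 85.2 and 66.8 of genes by mean signal. The remaining markers lay between percentiles 9.11 (Emcn) and 38.5 (Vwf). Among these, Pecam1 (percentile 25.4) stayed between 3.89 and 4.42 and Cdh5 (19.4) between 3.54 and 4.01. The part of endothelial gene expression in the Epas1 difference was not tested.

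Hif1a (chr12:73901324-73947554), the HIF-1α gene, had the opposite direction. Its log2 signal was 9.00 with vitamin C and 8.98 without in SKO cells of day 3, against 9.37 and 9.74 in GFP cells. The difference was -0.57 ± 0.15 (SE; limma adjusted p = 0.0200), and against day 4 of the SKO cells it was -0.85 (limma adjusted p = 0.00284). All 12 SKO arrays were below both GFP arrays, as for 7.47% of all genes. The call was lost without the untreated GFP array (-0.41, limma adjusted p = 0.145), the untreated SKO array (-0.50, limma adjusted p = 0.140) or the treated SKO array of day 3 (-0.63, limma adjusted p = 0.0841).

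Arnt (chr3:95434367-95497240), the common partner of both alpha subunits, had a log2 signal of 8.07 with vitamin C and 8.25 without in SKO cells of day 3, against 8.79 and 8.76 in GFP cells. This fall of 0.61 passed the test (-0.61 ± 0.16, SE; limma adjusted p = 0.0200), but on day 4 the SKO arrays stood at 8.63 and 8.82 and the difference from GFP cells was -0.05 (limma adjusted p = 0.935). The call was also lost without any single one of the 4 arrays of day 3 (from -0.69 to -0.54; limma adjusted p from 0.0561 to 0.167).

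Vhl (chr6:113623994-113631634), which hands hydroxylated HIF to the ubiquitin ligase, differed by -0.10 ± 0.15 (SE; 95% interval -0.42 to 0.21). Egln1 (chr8:124908587-124949254), the main oxygen-sensing hydroxylase in many cells, differed by -0.17 ± 0.17 and Egln2 (chr7:27158658-27166802) by 0.14 ± 0.16. Hif1an (chr19:44562854-44576274) was 6.98 and 6.95 in SKO cells against 6.83 and 6.77 in GFP cells of day 3 (0.16 ± 0.15, 95% interval -0.15 to 0.48). Its 12 SKO arrays all lay above both GFP arrays, as for 6.92% of all genes, without the day 3 difference passing the test. Egln3 (chr12:54178981-54203874) differed by 0.15 ± 0.27 on day 3, where its 2 GFP arrays lay 0.81 apart, and by 0.95 against day 4 (limma adjusted p = 0.0485).

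**Figure D2:**
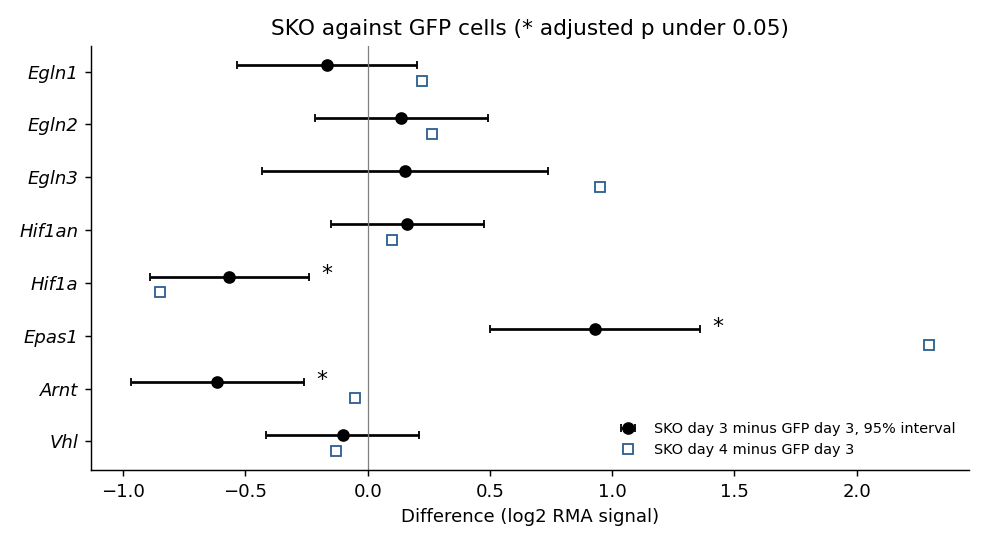
Difference in log2 RMA signal between SKO and GFP cells for each gene. Black points are SKO minus GFP on day 3 (2 arrays against 2) with 95% intervals from limma, stars mark an adjusted p under 0.05, and open squares are SKO day 4 minus GFP day 3. Hif1a lies below 0 and Epas1 above 0 at both days, whereas the Arnt difference is -0.61 on day 3 and -0.05 on day 4.

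Partners of the HIF pathway were divided in the same comparison. Of 19 measured, 3 rose and 5 fell in SKO cells, and 11 did not pass (median -0.07, against -0.04 over all genes). Over all genes 9.22% rose and 8.43% fell. Arnt2, a paralogue of Arnt, fell by 1.01 on the log2 scale, and Cited2, which competes with HIF for its coactivators, fell by 0.90. The coactivators Ep300 (-0.65) and Crebbp (-0.59) and Fkbp8, which binds PHD2 (-0.81), were lower too. Siah1b, of a ubiquitin ligase family that targets prolyl hydroxylases, rose by 0.85, Eloc, a subunit of the VHL ligase, by 0.65, and the chaperone gene Hsp90aa1 by 0.61. Arnt2 and Cited2 passed without any one array, whereas without the treated SKO array of day 3 the differences of Siah1b (0.89), Eloc (0.50), Hsp90aa1 (0.53), Fkbp8 (-0.75), Ep300 (-0.65) and Crebbp (-0.64) no longer passed, and each of the other 3 arrays of day 3 ended 3 or 4 of these calls. Against day 4, Cited2 (-0.0057), Crebbp (-0.012), Ep300 (0.048), Fkbp8 (0.027) and Eloc (0.033) were near 0 and none of the 8 passed, Arnt2 standing at -0.56 (limma adjusted p = 0.0595).

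Among 45 HIF target genes, SKO cells had 5 higher and 13 lower on day 3, and 27 did not pass (median -0.22, against -0.04 over all genes). Of all genes, 9.22% were higher and 8.43% lower. The endothelin gene Edn1 was 4.44-fold higher, the glucose transporter gene Slc2a3 3.17-fold, the transferrin receptor gene Tfrc 3.01-fold, Wsb1 2.02-fold and the hexokinase gene Hk2 1.94-fold. Car12, a carbonic anhydrase gene, was 2.09-fold lower, the haem oxygenase gene Hmox1 2.07-fold, Ndrg1 2.07-fold, Plod1, of collagen lysyl hydroxylation, 2.07-fold and the mitophagy gene Bnip3 1.87-fold. The Car12 signal was weak in SKO cells, with a log2 mean over the days of 4.09 with vitamin C and 4.04 without. The third of genes of lowest mean ended at 4.54. HIF targets thus moved in both directions, with more of them lower than higher. Without the treated SKO array Bnip3 (-0.65) and Car12 (-0.81) no longer passed, nor did Bnip3 without the untreated GFP array (-0.51) or Wsb1 without the treated one (0.72), and against day 4 Tfrc (0.088), Wsb1 (0.12), Hk2 (0.37) and Bnip3 (-0.82) did not pass. With the mean of its probes Bnip3 (-0.53) did not pass either.

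The time course asked how the genes changed in SKO cells between day 3 and day 10. Egln3 and Epas1 rose, and the other 6 genes did not pass. Egln3 was 2.46-fold and Epas1 1.81-fold higher on day 10 than on day 3. Thus 2 of 8 genes passed, both higher, against 6.55% of all genes that rose and 5.64% that fell. The same 2 genes passed the test for any difference between the 6 days, which 18.9% of all genes passed.

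Egln3, the prolyl hydroxylase gene most often found to be induced by hypoxia, was higher on every later day than on day 3 in both arms. The rise was not steady, as the signal fell from day 4 to day 5 and from day 8 to day 10 in each arm. With vitamin C its log2 signal was 6.24, 7.25, 7.20, 7.81, 8.35 and 7.82 on days 3, 4, 5, 6, 8 and 10. Without vitamin C it was 6.41, 6.99, 6.77, 7.45, 7.66 and 7.43 on the same days. Day 3 was lowest and day 8 highest in each arm. Averaged over both arms, the signal was 6.32, 6.98 and 7.62 on days 3, 5 and 10, and 7.12, 7.63 and 8.00 on days 4, 6 and 8, so within each set of days it was higher at each later day. The difference between day 10 and day 3 was 1.30 ± 0.19 (SE; 2 arrays against 2, limma adjusted p = 0.000850), and it kept its call without any one array (1.002 to 1.60). The test over all days gave limma adjusted p = 0.00131, with 0.0275 within days 3, 5 and 10 and 0.158 within days 4, 6 and 8. Against day 4 or day 5 in place of day 3, the rise to day 10 was 0.50 (limma adjusted p = 0.0928) and 0.64 (limma adjusted p = 0.131).

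Epas1 followed both time and the division of the days. With vitamin C its log2 signal was 6.78, 8.15, 7.19, 8.83, 8.84 and 7.82 on days 3, 4, 5, 6, 8 and 10, and without it 6.87, 8.23, 7.16, 8.21, 8.75 and 7.54. All arrays of days 4, 6 and 8 (8.15 or more) were above all arrays of days 3, 5 and 10 (7.82 or less), with means of 8.50 and 7.23. Such a separation was found for 5.7% of all genes. Within days 3, 5 and 10 the mean of both arms went up over the days (6.82, 7.17 and 7.68), as it did within days 4, 6 and 8 (8.19, 8.52 and 8.79). The difference between day 10 and day 3 was 0.86 ± 0.18 (SE; limma adjusted p = 0.00902), and the test over all days gave 0.000238 as limma adjusted p, with 0.0442 within days 3, 5 and 10 and 0.590 within days 4, 6 and 8. Against day 4 the sign turned, to -0.51 (limma adjusted p = 0.0802), and without the treated array of day 3 (0.72, limma adjusted p = 0.118) or of day 10 (0.77, limma adjusted p = 0.0879) the rise did not pass.

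Markers of other cell types were read beside these rises. Of 10 epithelial markers 6 rose between day 3 and day 10 and 1 fell (median 1.04), with Epcam (2.91 on the log2 scale), Spint2 (2.04) and Ocln (1.91) the highest. Treated SKO cells of days 3, 4, 5, 6, 8 and 10 had a mean of this list of 4.91, 5.20, 5.40, 5.46, 5.79 and 6.17 (log2), and untreated ones 4.91, 5.01, 5.16, 5.39, 5.63 and 5.83, higher at each later day in both arms. Macrophages and endothelial cells are known to express Epas1. The mean log2 signal of 10 macrophage markers was 6.00 with vitamin C and 6.12 without on day 10, against 4.74 and 4.58 on day 3, and 8 of the 10 rose. It was 5.42 and 4.97 on day 8, when Epas1 was at its highest. The mean of 10 endothelial markers was 4.88 and 4.87 on day 10, against 4.79 and 4.63 on day 3, with Tek (1.89 on the log2 scale) the 1 marker that rose. The part of epithelial, macrophage or endothelial gene expression in the rises of Egln3 and Epas1 was not tested.

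Egln1 and Arnt showed the division of the days, and neither passed the test between day 10 and day 3. Egln1 averaged 7.76 on days 4, 6 and 8 and 7.36 on days 3, 5 and 10, and Arnt 8.79 and 8.41. In both genes all 6 arrays of days 4, 6 and 8 were above all 6 of the other days, as for 5.7% of all genes. The test over all days narrowly missed the threshold for Egln1 (range of day means 0.51, limma adjusted p = 0.0508) and Arnt (0.69, limma adjusted p = 0.0615), and within either set of days neither passed (limma adjusted p of 0.201 or more). Arnt passed over all days without the untreated array of day 6 (0.93, limma adjusted p = 0.0257) and Egln1 without the treated array of day 8 (0.57, limma adjusted p = 0.0487). Between day 10 and day 3, Egln1 differed by -0.01 ± 0.14 and Arnt by 0.34 ± 0.17 (95% interval -0.02 to 0.70, limma adjusted p = 0.232), day 3 being the lowest day of Arnt at a mean of 8.16.

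Hif1a was higher on day 3 than on any later day in each arm, 9.00 with vitamin C and 8.98 without, while the later arrays lay between 8.59 and 8.83. Its difference between day 10 and day 3, -0.34 ± 0.14, did not pass (limma adjusted p = 0.151). Egln2 (-0.08 ± 0.15), Hif1an (0.22 ± 0.14) and Vhl (0.03 ± 0.14) did not pass either, and their 95% intervals reached from -0.40 to 0.24, from -0.10 to 0.53 and from -0.29 to 0.34.

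Of 19 partners 1 rose between day 3 and day 10 and 0 fell, against 6.55% and 5.64% of all genes. The 1 that rose was P4htm, a membrane-bound prolyl hydroxylase gene that has been reported to act on HIF (1.75-fold). It lost its call without the treated array of day 3 (0.47), the untreated array of day 10 (0.81) or the treated one (0.81), and with day 4 (0.18) or day 5 (0.33) as the base. Between any days 6 partners differed (31.6%, against 18.9% of all genes). The widest were Siah1b (range of day means 1.21), Ep300 (1.002), Cited2 (0.89), Fkbp8 (0.86) and Crebbp (0.84). None of these 5 passed within days 3, 5 and 10 or within days 4, 6 and 8. Of 45 HIF targets 3 rose and 7 fell from day 3 to day 10 (median -0.14, against -0.02 over all genes). Thus 22.2% of the targets passed, against 12.2% of all genes (6.55% higher and 5.64% lower). The histone demethylase gene Kdm3a was 1.59-fold higher, Pdk1, which keeps pyruvate out of the mitochondrial cycle, 1.52-fold and Ndrg1 1.49-fold. Tfrc was 2.45-fold lower, P4ha2, of collagen prolyl hydroxylation, 2.22-fold, the lysyl oxidase gene Lox 1.99-fold, Car12 1.71-fold and the glycolytic gene Pgam1 1.68-fold. Of these, Car12 had a weak signal, as given above. Without the treated array of day 3, Kdm3a (0.51), Pdk1 (0.39), Ndrg1 (0.50), Lox (-0.86) and Pgam1 (-0.78) no longer passed. Without the untreated array of day 10, Kdm3a (0.69), Pdk1 (0.69), Ndrg1 (0.53), Lox (-0.74), Pgam1 (-0.70) and Car12 (-0.89) did not pass. Without the treated array of day 10 Kdm3a (0.64), Pdk1 (0.52), Ndrg1 (0.62) and Car12 (-0.66) did not, and without the untreated array of day 3 Ndrg1 (0.65), Pgam1 (-0.71) and Car12 (-0.49) did not. Pdk1 without either array of day 5, and Car12 without any array of day 5 or day 8, missed the threshold at an unmoved difference (limma adjusted p from 0.0501 to 0.0607). Tfrc and P4ha2 passed without any one array, but with day 5 as the base none of these 8 targets passed, Tfrc standing at -0.30 and P4ha2 at -0.51 (limma adjusted p = 0.228). With day 4 as the base P4ha2 (-0.75), Pgam1 (-0.56) and Ndrg1 (0.50) passed, the other 5 did not, and the Tfrc difference was 0.21. Egln3 itself had a larger rise than any of the 45 targets, whose highest was 0.67. Across any days 12 targets differed (26.7%, against 18.9% of all genes). Tfrc (1.62), Adm (1.23), P4ha2 (1.15), Lox (1.02) and Ero1a (0.96) were the widest in range. Ero1a was lost without either array of day 3 or the treated array of day 5 or 8 (0.79 to 1.07), Lox without the treated array of day 3 (0.89) and P4ha2 without the untreated one (0.95). Within days 3, 5 and 10, Tfrc (1.29) and P4ha2 (1.15) passed and Lox (0.995), Ero1a (0.59) and Adm (0.57) did not. Within days 4, 6 and 8 none of the 5 passed, with ranges of 0.11 for Tfrc, 0.49 for P4ha2, 0.57 for Lox, 0.48 for Ero1a and 0.49 for Adm.

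The central comparison was vitamin C against no vitamin C in SKO cells of the same day. None of the 8 genes passed: 0 of 8, against 0.933% of all genes (186 of 19938). Egln3 had the largest difference, higher with vitamin C on 5 of 6 days. Egln1 was lower with vitamin C on 5 of 6 days by a small amount, and the other 6 genes had mean differences from -0.06 to 0.14.

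Egln3 had vitamin C differences of -0.17, 0.26, 0.43, 0.36, 0.69 and 0.39, in the order of the days, and their mean was 0.33 ± 0.28 (SD, n = 6 days). The 2 arms overlapped in level, since both were lower on day 3 than on any later day. The fitted difference, 1.25-fold with a 95% interval from 0.09 to 0.56 on the log2 scale, had an unadjusted p of 0.0109 and did not pass over all genes (limma adjusted p = 0.236). Days 3, 5 and 10 alone gave 0.22, and days 4, 6 and 8 alone 0.44. Its slope over the days, 0.07 per day, did not pass (limma adjusted p = 0.717).

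For Egln1 the difference was -0.17, -0.16, -0.15, -0.10, -0.26 and 0.01 on days 3, 4, 5, 6, 8 and 10 (mean -0.14 ± 0.09, SD over 6 days; limma adjusted p = 0.568). Its signal on those days was 7.32, 7.71, 7.21, 7.66, 7.65 and 7.41 with vitamin C, against 7.49, 7.87, 7.36, 7.76, 7.91 and 7.39 without. These differences are smaller than the gap between the sets of days in the same gene. Among the remaining genes, Epas1 differed by 0.14 (95% interval -0.09 to 0.37), with 0.61 on day 6 and no more than 0.28 on any other day. Arnt (-0.06), Hif1a (-0.05), Hif1an (-0.02), Egln2 (0.00) and Vhl (0.01) had 95% intervals that lay between -0.27 and 0.19. No slope of the vitamin C difference over the days passed for any of the 8 genes, where 7 genes in all did (0.0351%, with 0.01% higher and 0.0251% lower).

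**Figure D3:**
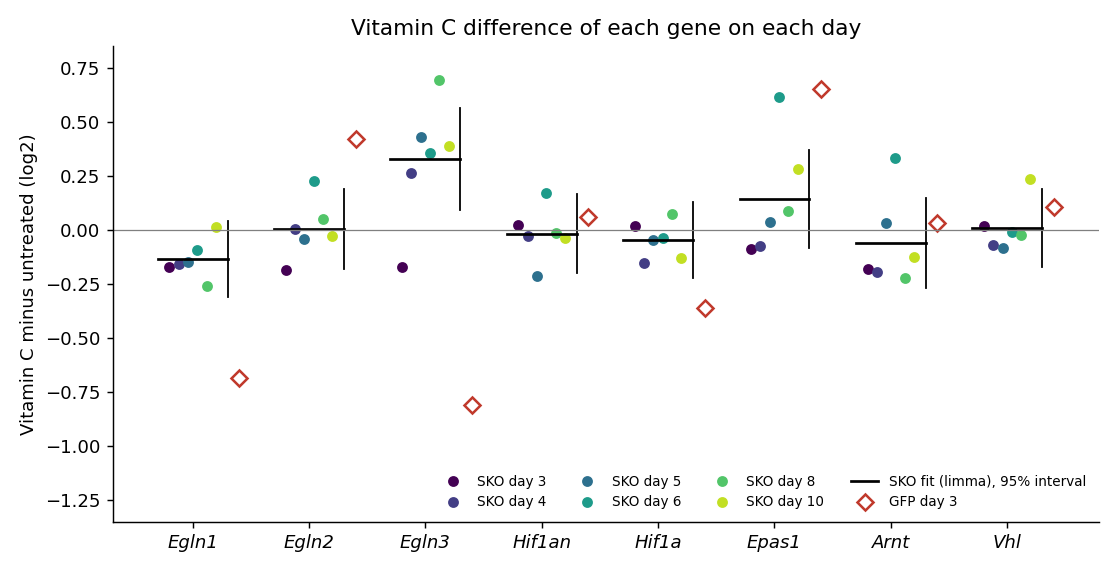
Vitamin C minus untreated difference in log2 RMA signal for each gene. Coloured points are the 6 days of the SKO cells, the horizontal line is the limma estimate with its 95% interval beside it, and the open diamond is the single GFP pair of day 3. Egln3 is above 0 on 5 of 6 days in SKO cells and at -0.81 in GFP cells, and Egln1 is at -0.69 in GFP cells.

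GFP cells gave 1 pair of arrays, so their vitamin C difference has no replicate check. In that pair Egln3 was 5.77 with vitamin C and 6.58 without, a difference of -0.81, and Egln1 was 7.23 and 7.91, a difference of -0.69. Epas1 was higher with vitamin C (6.22 and 5.57, by 0.65), as was Egln2 (7.47 and 7.06, by 0.42), and Hif1a was lower (9.37 and 9.74, by -0.36). Arnt (0.03), Hif1an (0.06) and Vhl (0.10) differed little. Thus 2 of 8 genes were over 1.5-fold lower, against 3.36% of all genes in this pair, and 1 of 8 over 1.5-fold higher, against 4.26%. The vitamin C difference of Egln3 in GFP cells was 1.13 below that in SKO cells, which did not pass over all genes (unadjusted p = 0.00192, limma adjusted p = 0.615), and that of Egln1 was 0.55 below (unadjusted p = 0.0246, limma adjusted p = 0.689). The GFP pair is of day 3, and on that day the SKO pair was also lower with vitamin C in both genes (-0.17 each). None of the 8 genes passed this test, nor did any of the 19938 (limma; 1377 had an unadjusted p under 0.05).

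HIF targets are set beside the hydroxylases here because EGLN3 and EGLN1 belong among them. With vitamin C 4 of 45 targets were lower in SKO cells and 0 higher, against 0.291% and 0.642% of all genes, with a median of -0.17 (-0.01 over all genes). They were P4ha1 (-0.90 ± 0.28, SD over 6 days), P4ha2 (-0.59), both of collagen prolyl hydroxylation, the lipoprotein receptor gene Vldlr (-0.58) and the stanniocalcin gene Stc2 (-0.41). Of the 45, 14 were lower with vitamin C on all 6 days and 0 higher on all 6, which was the case for 3.2% and 3.9% of all genes. The target list was chosen with earlier results of these data known, so its counts beside those of all genes are descriptions. P4ha1 kept its call when any 1 day was left out (-0.96 to -0.80), whereas P4ha2 (-0.65 to -0.53) and Vldlr (-0.64 to -0.52) lost theirs without day 4, 5, 6 or 10, and Stc2 (-0.44 to -0.37) without any one day. Within days 3, 5 and 10, where no gene passed, P4ha1 was at -0.84, P4ha2 at -0.62, Vldlr at -0.60 and Stc2 at -0.40. Within days 4, 6 and 8 P4ha1 (-0.96) passed narrowly (limma adjusted p = 0.0499), and P4ha2 (-0.56), Vldlr (-0.56) and Stc2 (-0.42) did not.

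In the GFP pair 37 of the 45 targets were lower with vitamin C, with a median of -0.41 (0.01 over all genes). Of the 45, 13 were over 1.5-fold lower and none higher by that much, against 3.36% and 4.26% of all genes. This too describes a list chosen with earlier results known. P4ha1 stood at -1.17, P4ha2 at -1.18, Vldlr at -1.16 and Stc2 at -0.70. The transferrin receptor gene Tfrc (-1.41) and Ero1a, an endoplasmic reticulum oxidase gene (-1.40), had the lowest values. Egln3 (-0.81) and Egln1 (-0.69) lay within the range of the 45 targets in GFP cells, from Tfrc (-1.41) to Angptl4 (0.42). That range is wide, and every other hydroxylase and subunit gene lay within it too, except Epas1 (0.65). In SKO cells the value of Egln3 (0.33, not past the test) was above that of the highest target, Edn1 at 0.18. Of 19 partners none passed in SKO cells with vitamin C, and the largest differences were those of Eloc (-0.19) and Siah2 (-0.17).

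**Figure D4:**
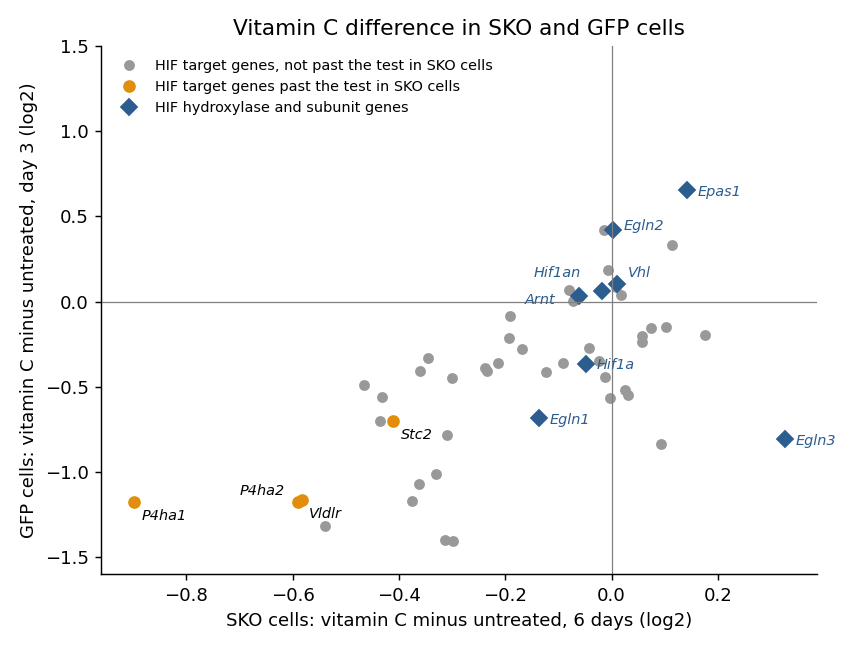
Vitamin C minus untreated difference (log2) in GFP cells of day 3 (1 pair of arrays, vertical axis) against SKO cells (mean of 6 days, horizontal axis) for 45 HIF target genes (circles, orange where past the test in SKO cells) and the 8 hydroxylase and subunit genes (diamonds). Most targets lie below and to the left of 0, and Egln3 lies at 0.33 and -0.81, to the right of all targets in SKO cells, where it did not pass the test.

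Over the 14 arrays the signals of the 8 genes had few close relations with each other, given as descriptions since arrays share days and virus. Egln3 and Epas1 had the highest Pearson correlation, 0.83, and Hif1a and Epas1 the lowest, -0.76. Egln1 and Arnt, which share the division of the days, had 0.54. Among the 6218 or 6219 other genes with a range of at least 1 on the log2 scale, the most similar to Egln3 were Zbtb44 (r = 0.96) and Zfp462 (0.95), to Epas1 Tmem243 and Ptgfrn (0.97 each) and to Hif1a Itih2 and Zfp637 (0.95 each). Nuak1 (0.92) and Pdzd8 (0.91) were most like Egln1, Dyrk1b and Nbl1 (0.94 each) most like Arnt, and Tspan15 and Kdm6a (0.87 each) most like Hif1an. The flat profiles of Egln2 (Atp8b2 and Als2cl, 0.78 each) and Vhl (Mrps16, 0.81, and Cdk15, 0.79) had no gene as close.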

How the data were processed

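Total RNA, extracted with Trizol, was labelled by Affymetrix's whole-transcript protocol and measured on 14 arrays, as the labels state. The authors deposited log2 signals, made with RMA and Partek per the submitters' processing notes; no version of either is given in the sources used here, and the log2 scale was read from the values (0.72 to 14.1). RMA compresses differences of weak genes. The table held 28853 probes, 21789 with 1 gene symbol, 1621 with several and 5443 with none listed. Older symbols were replaced by way of the Entrez numbers in RefSeq's GRCm38.p6 table, and each of 19938 genes was represented by its probe of highest mean. Of the lists, 19 of 22 partners, 45 of 49 HIF targets and all 8 genes of interest were measured. Numbers of arrays limit the precision.

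Models were fitted in R 4.3.3 with limma 3.58.1 (lmFit, eBayes; Benjamini-Hochberg over all genes, threshold 0.05). The vitamin C and day tests used the 12 SKO arrays with day as a factor and vitamin C (5 residual degrees of freedom), the slope test 4, SKO against GFP all 14 arrays in 7 virus-by-day groups plus vitamin C (6). The GFP against SKO difference added a vitamin C term of GFP cells' own (5). Labels pair the arms by day; deviations from each arm's mean correlated between paired arrays with r from 0.248 (day 6) to 0.677 (day 3). With 1 array left in a group, that array is assumed to vary like the others. Each test was tried on simulated data (200 of 19938 genes altered by a log2 size of 0.5 or 1). For vitamin C, 72% of the smaller and 100% of the larger shifts were found. SKO against GFP recovered 4% and 82%, day 10 against day 3 6% and 77%, and the GFP against SKO difference 0% and 1%. For any day it was 1% and 83%. Slopes that added up to these sizes between day 3 and day 10 were found in 1% and 1%. False calls were 4.44% of calls for vitamin C, 2.27% for SKO against GFP and 5.68% for day 10 against day 3. They were 9.68% for any day, 50% for the slope and 0% for the GFP against SKO difference. The rates for the slope and the GFP against SKO difference rest on very few calls, as these tests found at most 1% of the shifts.

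Named genes were, per comparison and list, at most 5 higher and 5 lower of largest difference past the threshold, or the 2 largest where none passed, and per gene the 2 of most similar pattern. The genes and lists were chosen with earlier results of these data known. Alternatives were quantile normalization, median centring, no low-signal genes, other eBayes settings, array weights, probe means, left-out days or arrays and other day codings. Python 3.11.15 and matplotlib 3.10.9 made the figures.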

Additional observations from a re-analysis of the deposited data

Results flagged for a closer look

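In the untreated SKO cells the Hif1a signal of day 3, 8.98, lay far from the other 5 days, which were between 8.72 and 8.79. For Vhl, the vitamin C difference of day 10 in SKO cells, 0.23, lay far from those of the other 5 days, which were between -0.09 and 0.02. These were the 2 flags among 24 sets of 6 values examined for a sample far from the rest (each gene with vitamin C, without it, and the difference), and chance flags about 1 in 20 such sets.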

How the results depend on the processing

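Over 912 values of the 8 genes under alternative settings, 883 kept their side of the threshold and, where called, their direction; 17 lost a call, 11 gained one and 1 turned its sign. In all comparisons, and over the named partners and targets as well as the 8 genes, 41 values that passed under neither setting had the other sign. With vitamin C 0 of the 8 genes passed under any alternative run, as for the slope and for GFP against SKO cells. For day 10 against day 3 the 2 calls became 0 with day 4 or day 5 as the base and 1 to 2 without single arrays. For any day the 2 calls became 4 (Egln1 and Arnt added) without the third of genes of lowest mean, with an intensity trend or with array weights, 0 within days 4, 6 and 8, and 2 to 3 without single arrays. For SKO against GFP the 3 calls became 0 to 3 without single arrays: 0 without the untreated GFP or untreated SKO array and 1, Epas1, without the treated SKO array. Signs turned with day 4 as the base for Epas1 (-0.51) and Tfrc (0.21), and with SKO day 4 against GFP for Fkbp8 (0.027) and Ep300 (0.048); the cause was not tested. Pdk1 lost its rise to day 10 with arrays centred on their median (0.54), and Stc2 its call with day as a line.

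Counts over all genes moved by over 1.5 times as follows. Vitamin C called 186 genes, 364 with an intensity trend, 112 with day as a line, 0 within days 3, 5 and 10, 62 within days 4, 6 and 8, and 23 to 263 without single days. With no replicate block, day left out of the fit, it called 4. P4ha1 passed there (limma adjusted p = 0.0343), and P4ha2 (0.802), Vldlr (0.218) and Stc2 (0.566) did not. Day 10 against day 3 called 2430 genes, 345 with day 5 as the base and 964 to 2696 without single arrays. Any day called 3773, 1232 within days 3, 5 and 10, 175 within days 4, 6 and 8, and 2273 to 4175 without single arrays. SKO against GFP called 3519, 1551 with SKO day 4 and 1298 to 3951 without single arrays. The slope called 7, 23 without low genes, 35 with an intensity trend and 0 to 10 without single days, and GFP against SKO called 0, or 1 with an intensity trend; without a GFP array it could not be fitted. Signals near the bottom of the range limit what can be seen for weak genes, though all 8 genes were above the median of all genes.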
